A study of Arabidopsis thaliana with 9 samples.

Results

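The genes described here are those of starch synthesis and starch breakdown in leaves, with the 9 beta-amylase genes BAM1 to BAM9 and QQS. They were taken from the count table by locus ID, and all 39 were found among its 32833 genes. Of the 39, 16 act in synthesis, 22 in breakdown, and QQS is the remaining one. The set was drawn up by function with earlier results of these counts known. QQS and BAM5 are treated as chosen by their fold changes in TINYOE and tiny124, so no present test of either is given. Counts of changed genes cover the other 37, of which 34 passed the filter on low counts, and these counts describe the set and are no independent support for it.

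Starch is built in the chloroplast by day and broken down at night. Glucose 1-phosphate is activated to ADP-glucose, starch synthases lengthen the chains, and branching and debranching enzymes shape them into a granule. At night dikinases phosphorylate the granule surface, beta-amylases release maltose, and maltose is exported and used in the cytosol. QQS (QUA-QUINE STARCH) encodes a short protein known only from Arabidopsis thaliana, and lowering its expression is known to raise leaf starch.

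RNA came from whole rosettes of 4-week-old plants under 16 h of light and 8 h of darkness, with 3 libraries in each of 3 genotypes. These were wild type (WT), a line labelled BES1P::TINYOE (TINYOE), named for overexpression of the AP2/ERF factor TINY, with a prefix BES1P that the labels do not explain, and a mutant labelled tiny1tiny2tiny4 (tiny124). The labels give neither the time of day of sampling nor the number of plants or independent lines behind a library, so the p-values speak only to the spread among these libraries, part or all of which may be technical. QuantSeq reads come from transcript 3' ends, and levels below are counts per 1000000 (CPM), with library sizes scaled by TMM. A log2 fold change is followed by its standard error, and an adjusted p is from edgeR's quasi-likelihood test over 16434 genes, with a threshold of 0.05.

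Library totals lay between 4917868 and 6070778 counts. TINY itself had 18 to 25 counts in WT, 27 to 35 in TINYOE and 3 to 5 in tiny124. It was lower in tiny124 than in WT (adjusted p = 0.00168), and its difference in TINYOE was not called (adjusted p = 0.343). For TINY2, too low to be tested, the WT libraries held 5, 7 and 11 tags, those of TINYOE 2, 1 and 0, and those of tiny124 1, 0 and 0, so both lines lay below WT. A 3' tag can miss both a transgene with another 3' end and a lesion elsewhere in the gene. The 6 leaf mesophyll markers summed to between 24700 and 34900 CPM in every library, against 31.3 to 73.2 CPM for 7 root markers, where EXPA18 and COBL9 were at 0 in WT and EXPA7 in tiny124. In bulk rosettes, fewer cells of a type and less RNA per cell cannot be told apart.

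QQS and BAM5, a beta-amylase known from the cytosol and the phloem, lay on opposite sides of WT in each line, and in tiny124 they were the farthest from WT of the 36 members that passed the filter. In TINYOE BAM5 was the farthest, and QQS came after PHS2. QQS (AT3G30720) stood at 116, 111 and 130 CPM in WT replicates 1, 2 and 3, at 245, 320 and 216 CPM in TINYOE and at 13.6, 8.27 and 7.26 CPM in tiny124. The genotypes did not overlap, with every TINYOE library above WT and every tiny124 library below it. The means were 119 ± 10 CPM in WT, 260 ± 53.5 CPM in TINYOE and 9.7 ± 3.38 CPM in tiny124 (SD, n = 3). QQS was thus 2.19-fold higher in TINYOE (log2 fold change 1.13 ± 0.20) and 12.3-fold lower in tiny124 (-3.62 ± 0.24) than in WT. Its raw counts were 523 to 709 in WT, 1267 to 1825 in TINYOE and 40 to 72 in tiny124, so even its lowest values rested on 40 or more tags.

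BAM5 (AT4G15210) showed the opposite order. It stood at 23.4, 7.62 and 15.6 CPM in WT replicates 1, 2 and 3, at 1.48, 0.701 and 1.37 CPM in TINYOE and at 32.4, 38.9 and 52.3 CPM in tiny124. No genotypes overlapped, although WT replicate 2 lay well below the other WT libraries. The means were 15.5 ± 7.86 CPM in WT, 1.18 ± 0.421 CPM in TINYOE and 41.2 ± 10.2 CPM in tiny124 (SD, n = 3). BAM5 was 12.9-fold lower in TINYOE (log2 fold change -3.69 ± 0.43), where its counts were only 4 to 9 per library, and 2.64-fold higher in tiny124 (1.40 ± 0.30). Between the 2 lines the log2 fold change of TINYOE over tiny124 was -5.09 ± 0.41 for BAM5 and 4.75 ± 0.25 for QQS. Both comparisons against WT use the same WT libraries. Without WT replicate 2, the BAM5 value was -4.00 in TINYOE and 1.09 in tiny124.

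The authors' deposited tables, which do not hold WT replicate 2, give values of similar size but did not call all of them. For QQS the authors' deposited table has a log2 fold change of 1.09 in TINYOE, which was not called, and -3.66 in tiny124, which was. For BAM5 the authors' deposited table has -4.04 in TINYOE, which was called, and 1.08 in tiny124, which was not. These calls come from the same counts by which both genes are treated as chosen, so they are no independent support for either.

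**Figure D1:**
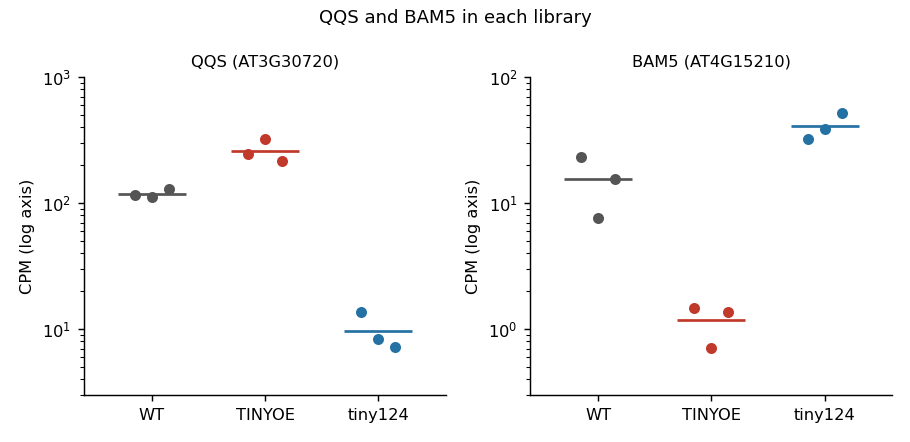
CPM of QQS (left) and BAM5 (right) on log axes, with 1 point per library and a line at the mean of each genotype. QQS is highest in TINYOE (216 to 320 CPM) and lowest in tiny124 (7.26 to 13.6 CPM), and BAM5 is lowest in TINYOE (0.701 to 1.48 CPM) and highest in tiny124 (32.4 to 52.3 CPM).

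Other values moved with these genes, and their part in the differences was not tested. Of the 7 phloem markers, which summed to 303 to 396 CPM in WT, 334 to 376 CPM in TINYOE and 344 to 368 CPM in tiny124, 4 of the 6 tested had log2 fold changes above 0 in TINYOE (median 0.10), and 1, the sieve element protein gene SEOR1, fell (-0.90). The sum of the 7 root markers was higher in tiny124 (65.1 to 73.2 CPM) than in WT (31.3 to 43.6 CPM), with PYK10, whose mean was 14.7 CPM in WT and 46.3 CPM in tiny124, the 1 called gene of the 3 tested (1.64). The other tested root markers, SCR and SHR, were at -0.17 and 0.00 in tiny124. The sum of the 8 inflorescence and flower markers was higher in TINYOE (39.8 to 80.5 CPM) than in WT (21.8 to 35.5 CPM). On chromosome 3 the 5 nearest tested genes on each side of QQS, in locus order, had log2 fold changes between -0.38 and 0.52 in tiny124 and between -1.44 and 0.84 in TINYOE, and edgeR called 0 of these 10 in either line. On chromosome 4 the 10 nearest to BAM5 lay between -0.79 and 0.71 in TINYOE, with 1 called lower (AT4G15180), and between -0.47 and 1.99 in tiny124, with 0 called. Over all tested genes 15.6% were called in TINYOE and 2.5% in tiny124, so few calls among 10 neighbours say little about either locus.

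The 250 bases before the annotated start are shown for 4 genes, read 5' to 3' on the coding strand from RefSeq's TAIR10.1: QQS and BAM5, whose levels differed most in tiny124, and the beta-amylase genes BAM3 and BAM4, which changed in opposite directions in TINYOE. The labels name TAIR10 for the counts, which carry no coordinates, so these windows rest on locus IDs alone. The QQS window is chr3:12348797-12349046 (plus strand), BAM5 is chr4:8669527-8669776 (minus), BAM3 is chr4:9607403-9607652 (minus) and BAM4 is chr5:22551484-22551733 (plus). None of the 4 windows overlaps another annotated gene. Capitals mark matches on either strand to the DRE core CCGAC, the GCC box GCCGCC, the G-box CACGTG and the evening element core AATATCT; the first and second are motifs of the kind bound by DREB and ERF factors, the family of TINY.
QQS: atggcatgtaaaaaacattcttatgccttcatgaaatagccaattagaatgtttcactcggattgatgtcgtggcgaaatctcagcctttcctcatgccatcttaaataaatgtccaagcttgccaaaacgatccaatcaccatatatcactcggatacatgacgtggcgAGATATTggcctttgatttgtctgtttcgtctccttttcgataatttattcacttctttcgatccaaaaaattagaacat
BAM5: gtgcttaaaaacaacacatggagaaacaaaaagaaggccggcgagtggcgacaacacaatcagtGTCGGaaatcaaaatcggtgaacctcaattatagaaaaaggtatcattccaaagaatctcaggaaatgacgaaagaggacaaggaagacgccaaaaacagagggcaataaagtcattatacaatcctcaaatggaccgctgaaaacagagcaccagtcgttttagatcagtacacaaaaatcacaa
BAM3: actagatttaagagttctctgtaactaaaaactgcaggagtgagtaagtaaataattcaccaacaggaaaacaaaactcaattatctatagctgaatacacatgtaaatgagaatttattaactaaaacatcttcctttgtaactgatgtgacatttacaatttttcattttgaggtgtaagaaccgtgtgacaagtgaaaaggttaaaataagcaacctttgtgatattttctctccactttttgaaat
BAM4: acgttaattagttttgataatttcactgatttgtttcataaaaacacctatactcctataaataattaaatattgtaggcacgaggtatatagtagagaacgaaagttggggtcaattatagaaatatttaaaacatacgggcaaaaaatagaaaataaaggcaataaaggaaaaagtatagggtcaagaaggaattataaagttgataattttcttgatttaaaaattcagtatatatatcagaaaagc
The QQS window held 1 evening element core, 80 bases before the start, and none of the other motifs. The BAM5 window held 1 DRE core, 186 bases before the start. The windows of BAM3 and BAM4 held none of the 4 motifs. A match is only a run of letters and is no evidence of binding.

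Over all 39 windows the G-box was found in 11 (28.2%), against 6.49% of the 27443 protein-coding windows of the nuclear genome. The evening element core was in 10 (25.6%, against 10%), the DRE core in 3 (7.7%, against 12%) and the GCC box in 0 (against 1.87%). The 3 windows with a DRE core were those of BAM5, AMY3 and ISA3. PHS1 held 3 G-boxes and an evening element core, SS4 and DPE1 held 2 G-boxes each, and 1 each was before PGI1, SS1, SS3, SBE2.1, LSF1, BAM2, BAM9 and PHS2. Among these G-box windows, those of SS3, SS4, LSF1 and PHS2 overlap a neighbouring annotated gene, as do the evening element windows of SEX4, BAM6 and MEX1.

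The first comparison asked what accompanies the overexpression that TINYOE is named for. Of the 34 tested enzyme genes other than BAM5, BAM4 rose, and PHS2, SS3, SS4, ISA2 and BAM3 fell. That is 17.6% of the 34, close to the 15.6% of all tested genes that were called; by direction, 8.15% of all genes were called higher and 7.44% lower. Of the 34, 29 had a log2 fold change below 0, with a median of -0.23 against 0.00 over all genes (quartiles -0.33 and 0.36). Among the genes called, BAM3, BAM4, SS3 and PHS2 each overlap another annotated gene. With the strand setting of the counting unstated, their counts are uncertain by any tags of that neighbour. For PHS2 that neighbour, AT3G46980, shares 35 bases on the same strand, so no strand setting would separate its tags there. The summed level of the 37 enzyme genes was 797, 886 and 829 CPM in WT, 662, 624 and 688 CPM in TINYOE and 780, 816 and 805 CPM in tiny124. The TINYOE libraries lay below all others in this sum, while tiny124 and WT overlapped. The sum weighs abundant genes most and includes the called genes, so it is not separate from the calls above. The mesophyll markers also summed lower in TINYOE (24700 to 28000 CPM) than in WT (33800 to 34900 CPM), and the part of this in the enzyme levels was not tested.

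**Figure D2:**
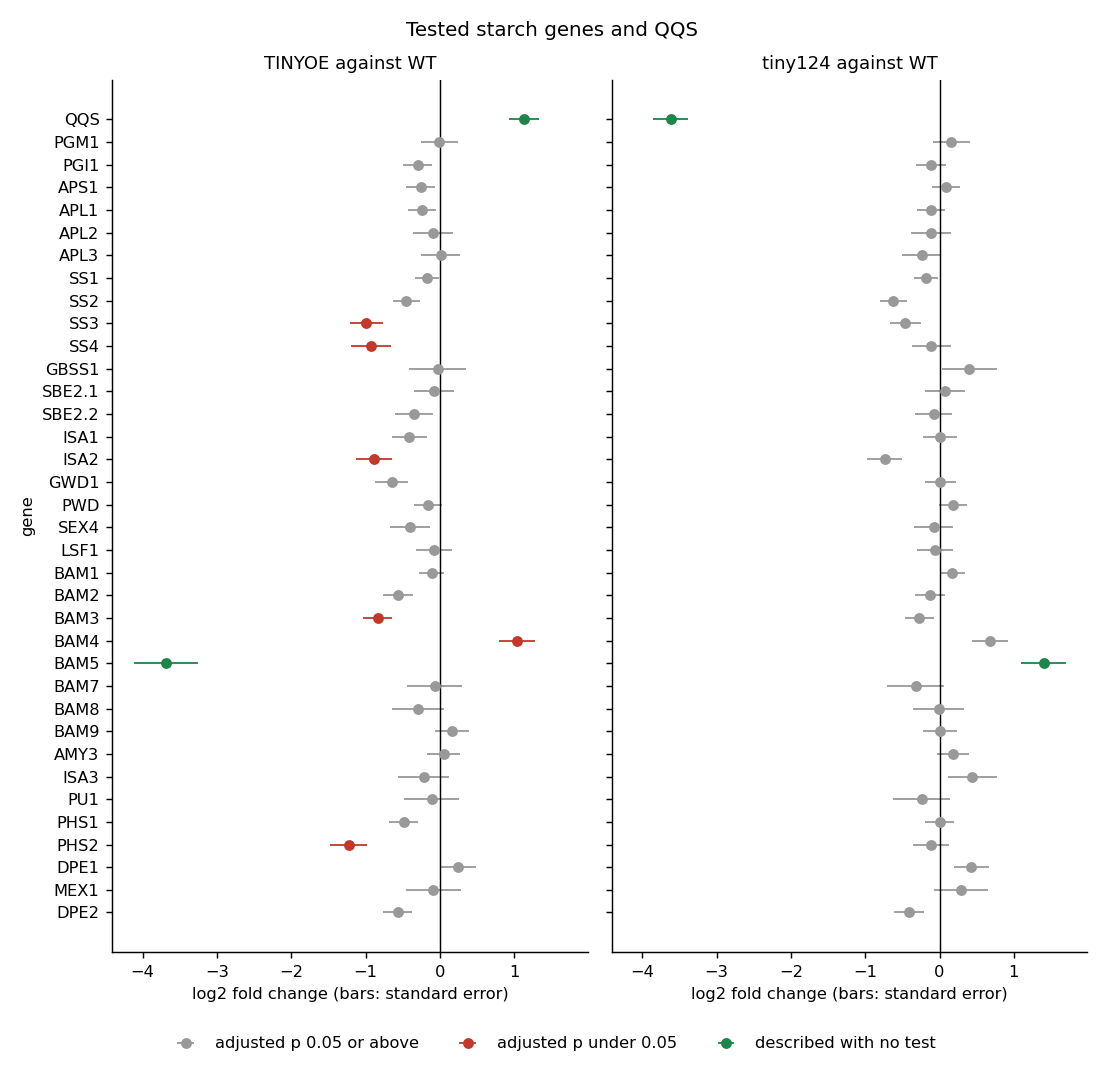
Log2 fold changes of the 36 members that passed the filter on low counts, in TINYOE against WT (left) and tiny124 against WT (right), with bars for the standard error. Red marks genes with an adjusted p under 0.05, grey the other genes, and green QQS and BAM5, which are described with no test; 6 genes are red on the left and 0 on the right.

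Among the genes that make and activate the precursor, none was called. PGM1 and PGI1, the plastid phosphoglucomutase and phosphoglucose isomerase, had log2 fold changes of -0.01 and -0.30 in TINYOE. APS1, the small subunit of ADP-glucose pyrophosphorylase, which makes ADP-glucose, was at -0.26, and its large subunits APL1, APL2 and APL3 lay between -0.24 and 0.01. APL4, the remaining large subunit, had 3 to 7 counts in every library and was not tested. The synthesis genes as a group had a median of -0.26, and 3 of the 15 tested (20%) were called, all 3 lower, against 15.6% of all genes called and 7.44% called lower.

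The starch synthases held 2 of these 3. SS3 (AT1G11720), which with SS4 is known for a part in granule initiation, stood at 19.7, 17.2 and 18.5 CPM in WT, 7.57, 7.54 and 12.8 CPM in TINYOE and 14.1, 13.1 and 13.3 CPM in tiny124. Every TINYOE library lay below every tiny124 library, and these below every WT library. SS3 fell 1.98-fold in TINYOE (log2 fold change -0.99 ± 0.22, adjusted p = 0.0064), and its value in tiny124 was -0.46 ± 0.21 (adjusted p = 0.43). SS4 (AT4G18240) stood at 21.1, 10.8 and 15.9 CPM in WT, 7.41, 10.5 and 7.18 CPM in TINYOE and 12.1, 13.2 and 19.2 CPM in tiny124. It fell 1.91-fold in TINYOE (-0.93 ± 0.27, adjusted p = 0.0269), by a narrow margin between WT replicate 2 and TINYOE replicate 2. The SS4 call was lost without WT replicate 1 (adjusted p = 0.129) or 3 (0.0747), without TINYOE replicate 1 (0.0957) or 3 (0.101), and with the replicate number as a block (0.055).

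SS1 and SS2, which lengthen short and intermediate chains, were not called, although their TINYOE and WT libraries did not overlap. SS1 stood at 101 to 113 CPM in WT and 91.8 to 97 CPM in TINYOE, a small difference (-0.17 ± 0.16). SS2 stood at 23.2 to 29.4 CPM in WT, 18.4 to 21.7 CPM in TINYOE (-0.45 ± 0.18, adjusted p = 0.0979) and 16.6 to 18.4 CPM in tiny124 (-0.62 ± 0.18, adjusted p = 0.0885). Of the 34 genes, 10 lay wholly lower and 1 wholly higher in TINYOE than in WT; over all genes 31.4% did not overlap, 15.3% wholly lower and 16.2% wholly higher. GBSS1, the granule-bound synthase that makes amylose, had 2.09 to 6.35 CPM in WT and 3.95 to 5.81 CPM in TINYOE, with a log2 fold change of -0.03.

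The branching and debranching enzymes of synthesis gave the third call. SBE2.1 and SBE2.2, which add branches, had log2 fold changes of -0.08 and -0.35 in TINYOE. ISA2 (AT1G03310) is the non-catalytic partner of the isoamylase ISA1, and together they trim misplaced branches. ISA2 stood at 17.3, 18.4 and 13.2 CPM in WT, 8.23, 9.11 and 8.88 CPM in TINYOE and 6.4, 12.9 and 9.81 CPM in tiny124. Both lines lay below every WT library. It fell 1.86-fold in TINYOE (-0.89 ± 0.24, adjusted p = 0.0196), a call lost when any 1 TINYOE library was left out (adjusted p from 0.0555 to 0.0682), and its value in tiny124 was -0.74 ± 0.24 (adjusted p = 0.159). ISA1 had a log2 fold change of -0.41 in TINYOE (adjusted p = 0.253).

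Of the breakdown genes other than BAM5 that passed the filter on low counts, PHS2 (AT3G46970) had the largest change in TINYOE. It encodes the cytosolic glucan phosphorylase, which acts on the carbohydrate made from exported maltose. PHS2 stood at 79.4, 39.8 and 64.5 CPM in WT, 26.7, 22.3 and 29.4 CPM in TINYOE and 46.3, 49.9 and 74.6 CPM in tiny124. All TINYOE libraries lay below all other libraries, and WT and tiny124 overlapped. PHS2 fell 2.35-fold against WT (-1.23 ± 0.25, adjusted p = 0.00321). Its plastid counterpart PHS1 stood at 49.9 to 61.9 CPM in WT and at 32.4, 32.6 and 51.8 CPM in TINYOE, where replicate 3 lay within the WT range. PHS1 was not called (-0.49 ± 0.20, adjusted p = 0.118), but was without TINYOE replicate 3 (-0.75, adjusted p = 0.0297).

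The dikinase GWD1 (SEX1), which phosphorylates starch to open the granule, lay just above the threshold. It stood at 30, 18 and 20.3 CPM in WT, 15.5, 13.8 and 14.2 CPM in TINYOE and 20.3, 21 and 27.6 CPM in tiny124. Its TINYOE libraries lay below all others, and its log2 fold change was -0.65 ± 0.22 (adjusted p = 0.052). It passed without WT replicate 2 (0.0148) and without a filter on low counts (0.0303). The second dikinase PWD, the glucan phosphatase SEX4 and the related protein LSF1 had log2 fold changes of -0.16, -0.40 and -0.08 in TINYOE.

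**Figure D3:**
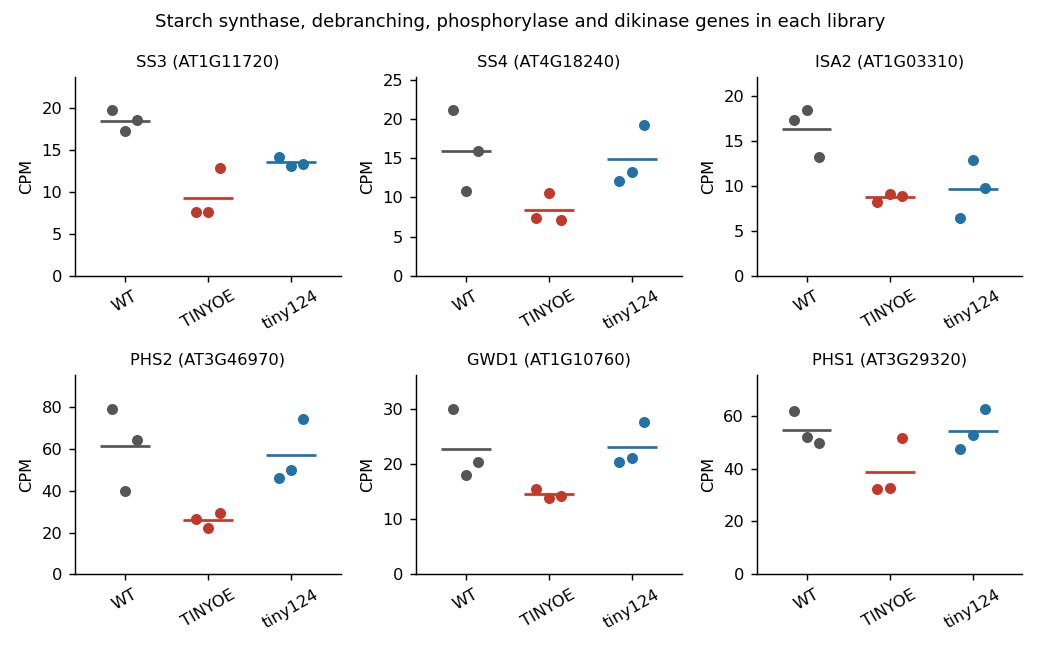
CPM of 6 enzyme genes, with 1 point per library and a line at the mean of each genotype. The TINYOE libraries of PHS2 (22.3 to 29.4 CPM) and GWD1 (13.8 to 15.5 CPM) lie below all WT and tiny124 libraries, and in PHS1 1 TINYOE library (51.8 CPM) lies within the WT range.

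The beta-amylases did not move together. BAM3 (AT4G17090), the main maltose-releasing enzyme of leaf mesophyll at night, stood at 79.5, 108 and 82.1 CPM in WT, 51.7, 40.1 and 58.6 CPM in TINYOE and 66.7, 85.5 and 71.2 CPM in tiny124. TINYOE lay below both other genotypes. BAM3 fell 1.79-fold against WT (-0.84 ± 0.19, adjusted p = 0.00686). BAM4 (AT5G55700), a plastid protein without catalytic activity that is known to promote breakdown, stood at 6.46, 8.68 and 5.5 CPM in WT, 13.3, 14.9 and 14 CPM in TINYOE and 12.2, 12.6 and 7.99 CPM in tiny124. Every TINYOE library lay above all WT and tiny124 libraries, and 1 tiny124 library lay within the WT range. BAM4 rose 2.05-fold in TINYOE (1.04 ± 0.24, adjusted p = 0.00753), and its value in tiny124 was 0.68 ± 0.24 (adjusted p = 0.222).

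The other beta-amylases were not called in TINYOE. BAM1, known for daytime and stress-induced breakdown and for guard cells, stood at 64, 91.9 and 73 CPM in WT, 72.3, 68.9 and 71.4 CPM in TINYOE and 90.2, 84.7 and 82.1 CPM in tiny124, with overlap of both lines with WT. BAM2, a plastid enzyme, stood at 15.4, 12.5 and 12.3 CPM in WT, 8.89, 9.82 and 8.54 CPM in TINYOE and 10.9, 12.4 and 13.4 CPM in tiny124. Its TINYOE libraries lay below all others (-0.56 ± 0.20, adjusted p = 0.0687). BAM7 and BAM8, nuclear proteins with the DNA-binding domain of the brassinosteroid factors BZR1 and BES1, were low in all libraries. BAM7 stood at 6.64, 2.12 and 2.75 CPM in WT, 3.95, 3.16 and 3.93 CPM in TINYOE and 3.01, 2.81 and 3.45 CPM in tiny124. BAM8 stood at 2.47, 3.39 and 3.12 CPM in WT, 3.46, 1.93 and 1.88 CPM in TINYOE and 3.39, 2.98 and 2.54 CPM in tiny124. For both, the lines overlapped WT, with log2 fold changes in TINYOE of -0.07 ± 0.37 for BAM7 and -0.29 ± 0.35 for BAM8. BAM9, a plastid member without catalytic activity, stood at 12.5, 13.8 and 12.8 CPM in WT, 13.2, 17.5 and 13 CPM in TINYOE and 16.4, 14.4 and 8.72 CPM in tiny124, again with overlap.

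BAM6 and the alpha-amylase gene AMY1 did not pass the filter on low counts. For BAM6 the WT libraries held 11, 1 and 5 tags, the TINYOE libraries 1, 3 and 0, and the tiny124 libraries 2, 6 and 3. Scaled for depth, the TINYOE to WT ratio of BAM6 was 0.206 (95% exact interval 0.0505 to 0.632), with an adjusted p of 0.0904 once the filter was dropped. AMY1, which encodes a secreted enzyme, had 7, 4 and 3 tags in the WT libraries, 17, 9 and 9 in those of TINYOE, and 5, 3 and 3 in those of tiny124. The TINYOE to WT ratio of AMY1 was 2.19 (1.15 to 4.41), with an adjusted p of 0.213 without a filter. These intervals cover counting error only. The libraries of both genes span a range of few tags, and small differences were not detectable at this depth.

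**Figure D4:**
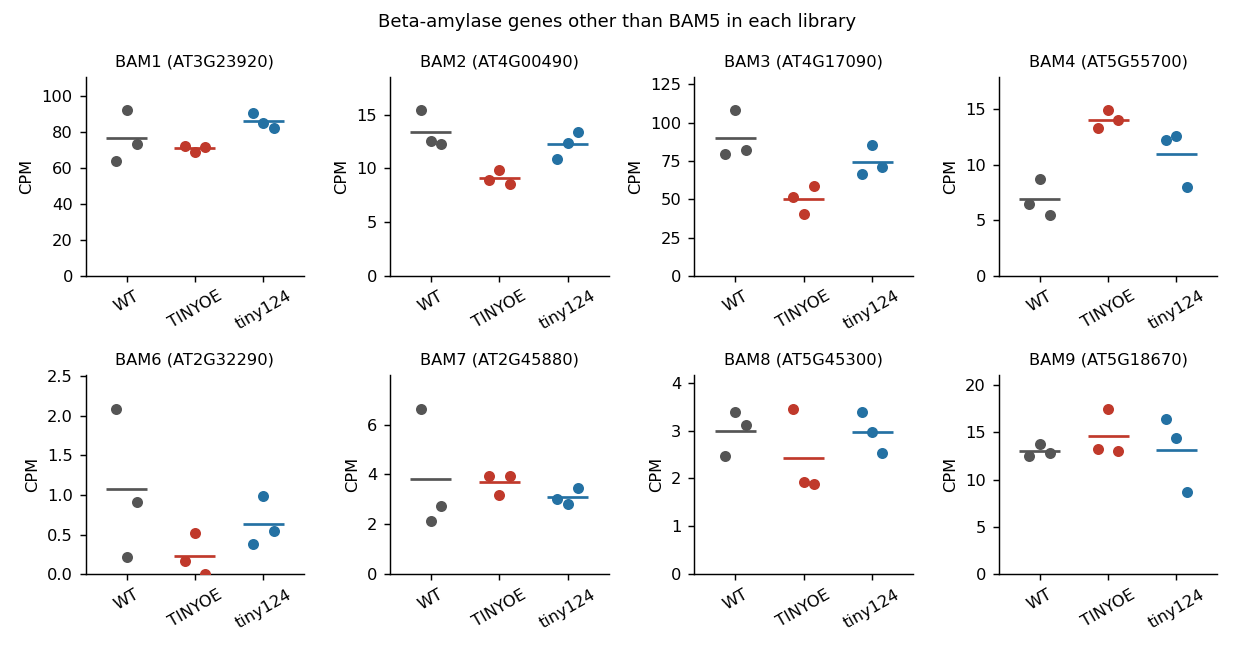
CPM of the 8 beta-amylase genes other than BAM5, with 1 point per library and a line at the mean of each genotype, each panel from 0. BAM3 is lowest and BAM4 highest in TINYOE, and BAM1, BAM7, BAM8 and BAM9 overlap between TINYOE and WT.

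Of the remaining breakdown genes in TINYOE, none was called. AMY3, the plastid alpha-amylase, was at a log2 fold change of 0.05. The debranching enzymes ISA3 and PU1 were at -0.22 and -0.11. The disproportionating enzyme DPE1, which works on maltotriose in the plastid, was at 0.24, and MEX1, the maltose exporter, was at -0.09. DPE2, which takes up maltose metabolism in the cytosol, stood at 12.9 to 15.2 CPM in WT, 8.06 to 10.9 CPM in TINYOE and 9.08 to 11.3 CPM in tiny124. Both lines lay below WT in DPE2, with values of -0.57 ± 0.20 in TINYOE (adjusted p = 0.0691) and -0.41 ± 0.20 in tiny124 (adjusted p = 0.463).

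The second comparison asked what accompanies the lesions that tiny124 is named for. None of the 34 enzyme genes passed the test in tiny124 against WT, with edgeR and with DESeq2. Over all genes, 2.5% were called, 1.75% higher and 0.755% lower. The enzyme genes lay between -0.74 (ISA2) and 0.68 (BAM4), with a median of -0.07 against -0.01 over all genes. In 4 of them, SS2, SS3, ISA2 and DPE2, every tiny124 library lay below every WT library, and in 0 above; over all genes 15.8% did not overlap, 7.58% wholly lower and 8.23% wholly higher. ISA3, DPE1, GBSS1 and MEX1 were at 0.44, 0.43, 0.40 and 0.29, each with tiny124 libraries that overlapped WT.

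The third comparison set the lines against each other. PHS2 was 2.18-fold lower in TINYOE than in tiny124 (-1.12 ± 0.25, adjusted p = 0.0075) and was the 1 enzyme gene called of 34 (2.94%), against 9.85% of all genes (5.12% higher and 4.73% lower). Between the lines 2 of the 34 lay wholly higher and 10 wholly lower in TINYOE, against 15.5% and 15.3% of all genes, or 30.8% in either direction. The PHS2 call was lost without tiny124 replicate 3 (-0.88, adjusted p = 0.0533). SS4 (-0.83, adjusted p = 0.0653), GWD1 (-0.66, adjusted p = 0.0654) and BAM3 (-0.57, adjusted p = 0.0711) lay just above the threshold. These 3 passed in the fit of the 6 libraries compared, without a filter, and without WT replicate 1 or 2, which made 4 called genes. Without TINYOE replicate 3, SS3 (-0.83, adjusted p = 0.0372) and PHS1 (-0.74, adjusted p = 0.0431) passed with PHS2. BAM4, SS3 and ISA2, which changed in TINYOE against WT, were not called between the lines with all 9 libraries, at 0.36, -0.53 and -0.16.

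WT replicates 1 and 2 lay on opposite sides of replicate 3 in these genes. Over the 34 enzyme genes the median log2 difference of each WT library from its group's other libraries, averaged, was -0.20 in replicate 1, 0.23 in replicate 2 and 0.03 in replicate 3, against 0.00, 0.00 and 0.02 over all genes. Replicate 2 was the lowest WT library in BAM5, PHS2, SS4 and GWD1 and the highest in BAM1, BAM3 and BAM4. The authors' deposited table for TINYOE, which does not hold WT replicate 2, called 1 of the 37 enzyme genes higher and 7 lower. In the authors' deposited table these included all 6 genes called here, with GWD1 (log2 fold change -0.79) and BAM6 (-2.72) besides. Without WT replicate 2 the present test called 7 of the 37, while all genes called rose from 2561 to 4032. The authors' deposited table for tiny124 called 0 of the 37. The share of all genes called in the authors' deposited tables was not counted.

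Pathway genes outside the set were taken from fixed lists. Of 18 other starch genes (granule proteins, plastid transporters and minor isoforms), 17 were tested, and 2 rose and 2 fell in TINYOE against WT (23.5%, against 15.6% of all genes). AMY2, a cytosolic alpha-amylase, stood at 11, 8.47 and 11.9 CPM in WT, 4.94, 3.51 and 5.64 CPM in TINYOE and 11.9, 9.26 and 12.7 CPM in tiny124. It was lower in TINYOE than in WT (-1.16, adjusted p = 0.00566) and than in tiny124 (-1.26, adjusted p = 0.00388). PTST1, a protein that targets GBSS1 to the granule, was also lower in TINYOE against both (-0.77 and -0.81). NF-YC4, a transcription factor subunit known to bind the QQS protein, rose in TINYOE (0.82, adjusted p = 0.0247) and was at 0.43 in tiny124 (adjusted p = 0.532). The plastid ATP importer NTT1 rose in TINYOE (0.82, adjusted p = 0.00787). Of the 10 tested genes nearest to it on chromosome 1, 5 on each side, 8 were also called higher and 0 lower. Their log2 fold changes ran from -0.08 to 1.59, and 8.15% of all genes were called higher. In tiny124 against WT, 0 of the 17 other starch genes were called by edgeR or DESeq2, where edgeR called only 2.5% of all genes.

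Of 18 genes of cytosolic sugar metabolism, 14 were tested, and 3 fell in TINYOE (21.4%, against 15.6% of all genes). PGM3, a cytosolic phosphoglucomutase with the close homolog PGM2, stood at 96.6, 46.4 and 74.4 CPM in WT, 31.4, 28.9 and 22.7 CPM in TINYOE and 52.3, 41.5 and 69.9 CPM in tiny124. Its TINYOE libraries lay below all others (-1.39 against WT, adjusted p = 0.00164, and -0.98 against tiny124, adjusted p = 0.0214). SUS1, a sucrose synthase, fell in TINYOE (-0.85, adjusted p = 0.00681), as did SPSA1, a sucrose phosphate synthase (-0.80, adjusted p = 0.0173). In tiny124 against WT, 0 of the 14 were called by edgeR or DESeq2, again against 2.5% of all genes by edgeR.

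Many starch genes are known to follow the day and the circadian clock, so 10 clock genes were read beside them. In TINYOE 1 of the 10 rose and 3 fell (40%, against 15.6% of all genes), and in tiny124 0 rose and 2 fell (20%, against 2.5%). The dawn gene LHY was lower in both lines than in WT, at -1.83 in TINYOE (adjusted p = 0.000246) and -1.18 in tiny124 (adjusted p = 0.0206). PRR9 fell in TINYOE (-2.18, adjusted p = 0.00599) and was at -1.60 in tiny124 (adjusted p = 0.083). CCA1 fell in both lines (-0.66 in TINYOE, adjusted p = 0.0382, and -0.89 in tiny124, adjusted p = 0.0314). LUX, an evening gene, rose in TINYOE (0.77, adjusted p = 0.0451) and was at 0.63 in tiny124 (adjusted p = 0.289). PRR9 and LUX thus lay on the same side of WT in both lines, although neither was called in tiny124. The part of these values in the starch gene levels was not tested, and a difference in clock phase or in sampling time cannot be told apart from a difference in level here.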

How the data were processed

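About 500 ng of rosette RNA per library entered QuantSeq 3' library construction, with single reads of 50 nt, per the series' design text. The deposited counts are raw reads per gene; trimming and mapping to TAIR10 used the BlueBee Lexogen QuantSeq 2.2.2 FWD pipeline, per the labels. The sources used here do not name its aligner, annotation or strand setting. The authors' deposited DESeq2 tables (tool per the submitters' processing notes) hold log2 fold changes, adjusted p-values and normalized counts rounded to whole numbers, a score not used here; they lack WT replicate 2. In the TAIR10.1 annotation 15 of the 39 members overlap another gene, so their counts are uncertain. On the same strand LSF1 does so by 343 bases, PHS2 by 35 and AMY1 by 16.

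All 9 libraries entered 1 edgeR 4.0.16 fit (R 4.3.3) with genotype as the only term, TMM factors and filterByExpr, which kept 16434 of 32833 genes. Tests were two-sided with Benjamini-Hochberg adjustment. The members, lists and tests were chosen with earlier results of these data known. Values in every library are given for QQS, the beta-amylases and each member called. From each other list, at most the 3 called genes of largest change in each comparison are named, with values in the other comparisons for some of them. Replicates of a genotype differed by more than counting noise (chi-square of 4.74 to 22.7 per degree of freedom). The test was checked on simulated counts. Promoter windows are the 250 bases before each annotated start. Alternatives were DESeq2 1.42.0, its size factors, other filters, fits of the 6 libraries compared, a replicate block and leaving out each library.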

Additional observations from a re-analysis of the deposited data

How the results depend on the processing

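Of 102 tested log2 fold changes of enzyme genes under 15 alternatives, 1524 values were computed. Of these, 1498 kept their side of the threshold, 9 lost a call and 17 gained one. Among the changes called with all 9 libraries, 0 reversed direction. Reversals were not counted for the changes not called, and some of those did change sign, such as PGM1 in TINYOE against WT (-0.27 to 0.24). The 6 enzyme genes called in TINYOE against WT were 4 to 7 with single libraries left out, and PHS2, SS3, BAM3 and BAM4 kept their calls in all 15. The count in tiny124 against WT was 0 throughout. TINYOE against tiny124 gave 1 enzyme gene, 4 without a filter on low counts, 4 in the fit of the 6 libraries compared, and 0 to 4 with single libraries left out; the cause was not tested. QQS ranged from 0.96 to 1.25 in TINYOE, -3.93 to -3.44 in tiny124 and 4.57 to 5.06 between the lines with single libraries left out, and BAM5 from -4.00 to -3.27, 1.09 to 1.82 and -5.28 to -4.83.

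With single libraries left out, all genes called ranged from 1604 to 4032 in TINYOE (2561 in all 9 libraries), 167 to 526 in tiny124 (411) and 946 to 2205 between the lines (1618). Values over 1.5 times from these came, in TINYOE, without WT replicate 2 (4032), WT replicate 3 (1604) or TINYOE replicates 1 (1676) and 2 (1661). In tiny124 they came without WT replicate 3 (206) or tiny124 replicates 1 (167), 2 (217) and 3 (240). Between the lines they came without TINYOE replicates 1 (1076) and 3 (987) or tiny124 replicates 1 (1006) and 3 (946). Other starch genes called ranged from 2 to 5 in TINYOE, and from 1 to 4 between the lines, and cytosolic sugar genes from 0 to 2 between the lines. Without a filter, 706 genes and 1 other starch gene were called in tiny124. Deviations of same-numbered libraries had correlations from -0.31 to 0.36, and those of differently numbered libraries from -0.41 to 0.44. With 3 libraries per genotype these values cannot decide whether the numbers pair the samples. With the replicate block 5, 0 and 1 enzyme genes were called in the 3 comparisons. At these depths APL4, BAM6 and AMY1 rested on few tags.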
